A study of Lens culinaris with 20 samples.

Results

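miR159 was followed here in lentil (Lens culinaris), a grain legume, from the miRNA entries of a small RNA survey of 7 tissues. Its members were taken by name: each entry of the deposited table that carries the number of miR159, and no other, and is named after a known plant miRNA was included, and entries of identical mature sequence were joined. This gave 20 entries and 17 distinct members, of 1642 entries and 1464 distinct sequences in the table. Libraries numbered 3 each for stem, mature leaves, shoots, roots, young pods and flower buds, and 2 for flowers, or 20 in all. No cultivar, plant age, treatment or genotype is given in the labels, which state that RNA came from pooled samples. Nothing in them ties a library to its own plant or pool. The p-values below therefore rest on the spread between libraries of unknown origin, which may be purely technical. The study asked which miRNAs are expressed where in the plant, and for miR159 this becomes a question of which members, and which strand of each hairpin, make up the family in each tissue.

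Plant miRNAs are cut from a hairpin-shaped precursor as a duplex of a 5′ and a 3′ strand, and usually a single strand is kept. miR159 is an old land-plant family that guides cleavage of GAMYB-like MYB transcription factor mRNAs, known for their roles in anthers and in the aleurone of seeds and, in Arabidopsis, held low by miR159 in vegetative tissue. Its closest relative is miR319, which guides cleavage of TCP transcription factor mRNAs that control leaf growth. In Arabidopsis the long hairpins of both families are cut stepwise, starting near the loop, which also releases further duplexes from between the loop and the miRNA. The functional strand of miR159 lies on the 3′ arm.

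The sequences on which the results turn are given first, 5′ to 3′, with the seed (bases 2 to 8, which open target pairing) in capitals. The set holds the main member, both MIR159b strands, the other strands found on the MIR159a hairpin, the most abundant lengthened form and, for comparison, the main miR319. Names are those of the table, in which a prefix such as mtr (Medicago truncatula) is the species of the known miRNA and a suffix gives the difference from it.
mtr-miR159a: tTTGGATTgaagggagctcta
mtr-MIR159b-p3_1ss15CT: tGGAGTGAagggagttccaaa
mtr-MIR159b-p5_1ss11CT: tGGGGCTCtctgcactccaag
cas-miR159b-5p_2ss2GT8AT: aTCTGCTTagctatggatccc
mtr-MIR159a-p5_1ss6CG: tGGATGTTgctatgttgatag
lcum-miR-4626_3318-3p: cTTTCATAtctagggagactt
ptc-miR159a_R+1: tTTGGATTgaagggagctctaa
gma-miR319f_1ss17TC: tTGGACTGaaggggcccctt

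The members did not all share a seed. The seed TTGGATT of mtr-miR159a was common to 11 of the 17 members, whose listed reads came to 775132. That total counts 375 reads under both ath-miR159b-3p_R+1_1 and ath-miR159b-3p_R+1_2, which have identical counts. Each of the other 6 members had a seed of its own: GGAGTGA in MIR159b-p3, GGGGCTC in MIR159b-p5, TCTGCTT in cas-miR159b-5p, GGATGTT in MIR159a-p5, ATTTGGA in vca-miR159-3p_L+2 and TGGAGTG in the zma member. MIR159b-p3 sits on the same arm of its hairpin as mtr-miR159a does on its own, but its first base lines up with the third base of mtr-miR159a. Over the 19 bases that then align, 16 were identical, and the differences were T7G, C17T and T20C (base of mtr-miR159a, its position from the 5′ end, base of MIR159b-p3). The main miR319 was identical to mtr-miR159a at 15 of 20 aligned bases. Set against the known miRNAs they are named after, by the table's own names and with positions again from the 5′ end, MIR159b-p5 carries C11T, MIR159b-p3 carries C15T, MIR159a-p5 carries C6G and cas-miR159b-5p carries G2T and A8T.

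The table lists a precursor for most entries. Of the 17 members 6 lay unchanged in their listed precursor, 8 did not, and 3 had none. In the hairpins below, capitals mark every stretch that the table lists as a mature sequence.
MIR159a: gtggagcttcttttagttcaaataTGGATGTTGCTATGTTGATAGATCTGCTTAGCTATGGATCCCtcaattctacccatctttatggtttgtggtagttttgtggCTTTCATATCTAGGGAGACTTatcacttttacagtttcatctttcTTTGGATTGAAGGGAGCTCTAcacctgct
MIR159b: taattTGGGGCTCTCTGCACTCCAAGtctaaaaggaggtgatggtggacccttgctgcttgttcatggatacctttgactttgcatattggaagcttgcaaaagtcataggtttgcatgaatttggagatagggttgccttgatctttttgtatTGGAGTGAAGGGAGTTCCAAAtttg

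**Figure D1:**
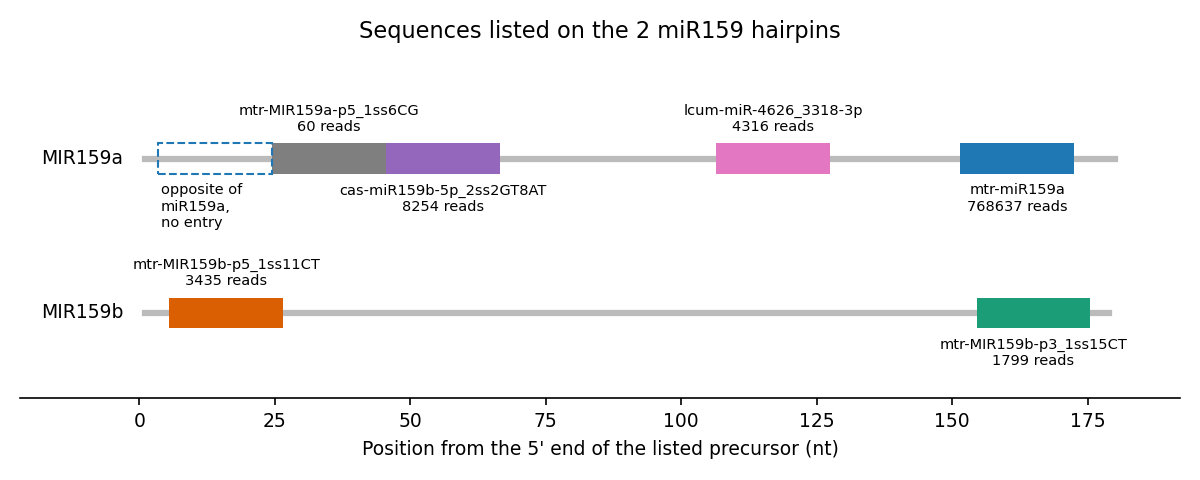
Mature sequences listed on the MIR159a hairpin (180 nt) and the MIR159b hairpin (179 nt), drawn by position from the 5′ end of the listed precursor in nt, with total reads over the 20 libraries. Filled boxes are listed sequences and the dashed box is the stretch predicted opposite mtr-miR159a. Both ends of MIR159b carry a listed strand, while on MIR159a the stretch opposite mtr-miR159a is empty and further strands lie nearer the loop.

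The 2 hairpins differed in which strands were listed. Folded with RNAfold, MIR159b reached a minimum free energy of -83.7 kcal/mol, and its p5 strand (bases 6 to 26) and p3 strand (bases 155 to 175) shared 18 predicted base pairs. Each of these strands was exactly the stretch predicted to lie opposite the other with 2-nt 3′ overhangs, the geometry of a miRNA duplex. MIR159a reached -72.0 kcal/mol, with mtr-miR159a at bases 152 to 172. The stretch predicted opposite mtr-miR159a, gagcttcttttagttcaaata at bases 4 to 24, matched 0 entries of the table, and 0 entries shared 15 or more bases with it. MIR159a-p5 instead lay at bases 25 to 45 and cas-miR159b-5p at bases 46 to 66, end to end with that empty stretch. cas-miR159b-5p is named after another hairpin, but its listed precursor of 96 nt is a stretch of MIR159a. The stretch predicted opposite cas-miR159b-5p, at bases 107 to 127, is the sequence listed as lcum-miR-4626_3318-3p, whose own listed precursor of 125 nt is again a stretch of MIR159a. Those strands shared 14 predicted base pairs. The mature sequence of mtr-miR159a also stands in another listed precursor, so its reads cannot be assigned to MIR159a alone. No genome was used here, so positions are within the listed precursors.

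Reads assigned to mature miRNAs totalled 72853 (roots 2) to 997119 (flowers 2) per library. Of 6576 values above 0 in all, 600 were under 5 reads, the smallest 2.33, and in features listed in whole reads only 24 of 3911 were. No MIR159b value above 0 was under 5 reads, so 5 reads stand in below for a MIR159b strand listed at 0. They equal 4.03 CPM in flowers 2 and as much as 60.97 CPM in mature leaves 3. Levels are CPM, read counts relative to the library size after edgeR's TMM scaling, whose factors ran from 0.508 (mature leaves 1) to 1.71 (roots 2). Of the 17 members 11 passed the filter on low counts, among 323 features tested. A call needed an adjusted p (Benjamini-Hochberg, over the 323 features) under 0.05 and, between tissues, a log2 fold change of at least 1 in size. Errors are the SD over libraries for a CPM and the standard error for a log2 fold change.

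The main member, mtr-miR159a, was highest in stem and lowest in flower buds. It held 768637 reads and averaged 114385 CPM over the tissues, the second-ranked feature of the table. Levels were 172035, 312595 and 261434 CPM in the stem libraries. Mature leaves had 313833, 111430 and 93669 CPM, so that 1 leaf library had the highest value of all 20 and the other 2 lay under every stem library. The high one, mature leaves 1, also had the lowest TMM factor (0.508), which raises its CPM. As a share of library reads it too lay under every stem library. Shoots had 116897, 116021 and 138861 CPM, and roots had 65285, 71178 and 107645 CPM. All 3 shoot libraries were above all 3 root libraries, and all 6 were below stem. The separation of shoots from roots rests on the TMM factors, 0.91 to 1.07 in shoots and 1.25 to 1.71 in roots. As a share of library reads, roots 3 lay above every shoot library. Young pods had 76134, 61295 and 75163 CPM, flowers had 54913 and 62630 CPM, and flower buds had 41156, 47030 and 44109 CPM. The bud libraries were the 3 lowest of the 20.

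**Figure D2:**
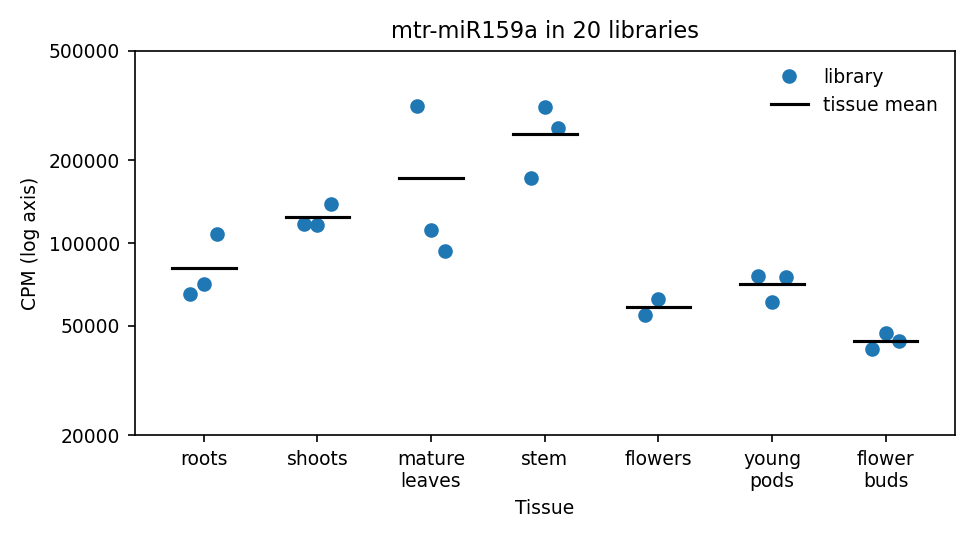
Level of mtr-miR159a in CPM on a log axis in each of the 20 libraries, by tissue. Points are libraries and bars are tissue means, with stem at 248688 CPM and flower buds at 44098 CPM. Mature leaves 1, at 313833 CPM with a TMM factor of 0.508, stands above the other leaf libraries.

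mtr-miR159a differed over the 7 tissues (adjusted p = 9.99e-05), as did 74.3% of all features. In stem it averaged 248688 ± 71142 CPM (n = 3) against a mean of 92001 CPM in the other 6 tissues, a log2 fold change of 1.59 ± 0.25 (adjusted p = 6.09e-05), where 22.6% of features were called higher. In flower buds it averaged 44098 ± 2937 CPM (n = 3) against 126099 CPM in the other 6, a log2 fold change of -1.32 ± 0.31 (adjusted p = 0.00388), where 6.19% of features were called lower. The bud call was lost, with fold changes just under the threshold, without roots 2, mature leaves 1, flowers 1 or young pods 3 (log2 fold change -0.95, -0.95, -0.92 and -0.93) and with the authors' factors (-0.82). Relative to the median of all features the bud difference was -1.36 with TMM, -1.32 with DESeq2's size factors or library size alone, and -1.34 with the authors' factors. Those medians ran from -0.24 to 0.52. Subtracting the median removes most of a change of scaling by construction, so these values cannot show that the call is stable.

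The other 5 tissues were not called. Mature leaves averaged 172978 ± 122308 CPM (n = 3) against 104620 CPM elsewhere, a log2 fold change of 0.98 ± 0.26 (adjusted p = 0.00653) that missed the size threshold and was -0.21 without mature leaves 1. Log2 fold changes were -0.84 ± 0.36 in flowers, -0.53 ± 0.29 in young pods, 0.42 ± 0.27 in shoots and -0.29 ± 0.29 in roots, with adjusted p from 0.118 to 0.451. The root value depended on the scaling, at 0.34 with library size alone and -1.12 with the authors' factors. Relative to the median feature it was between -0.22 and -0.19 under all 4 scalings, a closeness that subtracting the median largely fixes in advance. In these bulk samples fewer cells of a type and less RNA per cell cannot be told apart.

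In order of mean level the tissues ran stem, mature leaves, shoots, roots, young pods, flowers and flower buds. None of the 6 pairs of neighbours in this order was called by edgeR, 0 had an unadjusted p under 0.05, and DESeq2 called 0. The log2 differences between neighbours were 0.20 to 0.61, with standard errors of 0.37 to 0.41. On the TMM scale the ranges of shoots and roots, and of flowers and flower buds, did not overlap, while those of the other 4 pairs did. Of all 21 pairs of tissues 9 were called. Stem was above roots, young pods, flowers and flower buds (log2 differences 1.61, 1.81, 2.08 and 2.50), mature leaves were above the same 4 (1.09, 1.29, 1.56 and 1.97), and shoots were above flower buds (1.49). Over all features and pairs, 26.9% of such tests were called. All 4 leaf calls rested on mature leaves 1, without which leaves were 0.0011, 0.21, 0.055 and 0.63 above roots, young pods, flowers and flower buds (adjusted p 0.0628 to 1) and under shoots (log2 difference -0.52). The leaf calls over roots, young pods and flowers were also lost without any of 17, 14 and 8 single libraries, and with library size alone (0.10, 0.91 and 0.79). Stem over roots was likewise lost with library size alone (0.87), and stem over flowers without either flower library (adjusted p = 0.150 and 0.0685). Shoots over flower buds was not called under the authors' factors (0.93), nor when roots 2 or flowers 1 was left out (adjusted p = 0.0518 and 0.0769). Conversely, without 7 single libraries stem was called above mature leaves (up to 1.62).

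Both strands of MIR159b followed another pattern, with most of their reads in roots. MIR159b-p5 was at 5456, 4593 and 8471 CPM in roots. Outside roots its highest level was 466 CPM, in stem 2. The other stem libraries had 143 and 216 CPM, and young pods had 99.2, 73.2 and 100.2 CPM. The root libraries did not overlap with those of any other tissue. Mature leaves had 55.6, 66.1 and 73.2 CPM, flowers had 42.5 and 19.3 CPM, and flower buds had 33.3, 13.6 and 40.7 CPM. Shoots had 114.9 CPM in shoots 1 and were listed at 0 in shoots 2 and 3. MIR159b-p5 averaged 6174 ± 2036 CPM in roots (n = 3) against 88.2 CPM over the other 6 tissues, a log2 fold change of 6.69 ± 0.53 (adjusted p = 1.50e-08), where 32.2% of features were called higher.

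MIR159b-p3 was at 3783, 3151 and 4655 CPM in roots. It was listed at 0 in every library of shoots, mature leaves and flower buds. The stem libraries had 20.5, 55.1 and 15.5 CPM, flowers had 0 and 4.03 CPM, and young pods had 0, 13.1 and 0 CPM. Roots again did not overlap with any other tissue. With 5 reads put in for each listed 0, the mean of 3863 ± 755 CPM in roots (n = 3) was at least 156.5-fold higher than that of the 6 remaining tissues. This strand passed the filter on low counts through its root libraries alone, so no p is given for its level there. Roots supplied 83.1% of all MIR159b-p5 reads and 97.2% of all MIR159b-p3 reads, but 4.60% of the reads of all features.

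**Figure D3:**
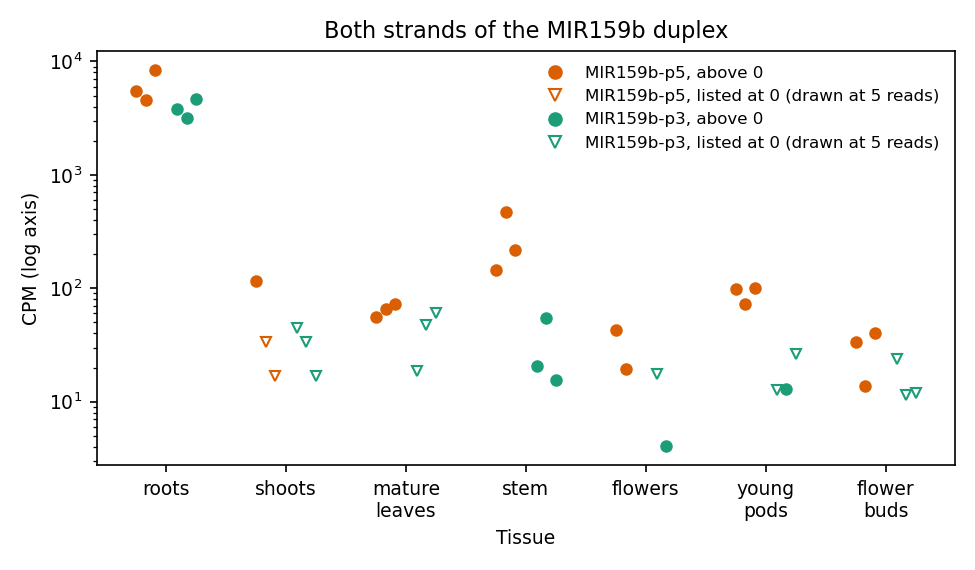
Levels of MIR159b-p5 and MIR159b-p3 in CPM on a log axis in each library, by tissue. Filled points are values above 0 and open triangles are libraries listed at 0, drawn at the level of 5 reads. Root libraries lie between 3151 and 8471 CPM, and every other library lies at or below 466 CPM.

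Within a library the ratio of mtr-miR159a to a MIR159b strand needs no scaling. In the root libraries there were 11.97, 15.5 and 12.7 reads of mtr-miR159a for each read of MIR159b-p5. In the libraries of other tissues with the strand above 0 there were 671 (stem 2) to 5641 (mature leaves 1), and at least 3456 and 8259 in shoots 2 and 3, with 5 reads in place of 0. For MIR159b-p3 the ratios were 17.3, 22.6 and 23.1 in roots, and 4692 to 16848 in the 5 other libraries that listed it. No library of another tissue came near the root ratios for either strand. On the log2 scale, with 1 read added to both, the ratio to MIR159b-p5 averaged 3.73 ± 0.19 in roots (SD, n = 3) against 9.56 to 13.1 in the other tissues. The ratio to MIR159b-p3 averaged 4.38 ± 0.23 in roots against 13.03 to 14.4. The ratio to MIR159b-p5 differed over the 7 tissues, with permutation p = 0.00057 (100000 resamples of the libraries, two-sided), or 0.00228 when adjusted over 4 ratios. No p is given for the ratio to MIR159b-p3. That strand passed the filter through roots alone, and in the 12 libraries that list it at 0 the added read sets the ratio.

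**Figure D4:**
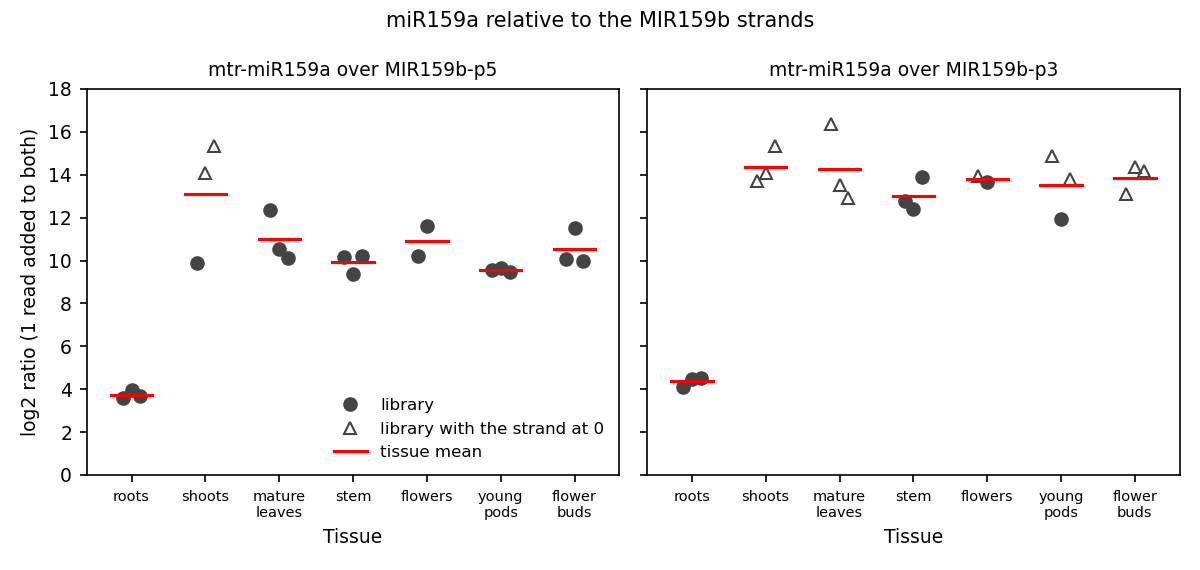
Log2 ratio of mtr-miR159a reads to MIR159b-p5 reads (left) and to MIR159b-p3 reads (right) in each library, by tissue, with 1 read added to both. Circles are libraries with the strand above 0, triangles are libraries with it at 0, where the ratio is set by the added read, and bars are tissue means. Root means are 3.73 and 4.38, and means of the other tissues are 9.56 or more.

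The make-up of the family in roots differed from that in the other tissues. mtr-miR159a was 87.98% ± 1.17 of miR159 reads in roots (SD, n = 3), against means of 96.7% to 98.8% in the other tissues. The MIR159b strands together were 10.9% ± 1.30 in roots, against 0.0324% to 0.132%. mtr-miR159a itself was not called in roots.

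MIR159b-p5 outnumbered MIR159b-p3 in 18 of the 18 libraries that listed either, although by name and arm p3 is the strand that corresponds to mtr-miR159a. The p5 share of the duplex reads was 59.1%, 59.3% and 64.5% in roots, with Wilson 95% intervals within 56.2% to 66.4%. In stem it was 87.5%, 89.4% and 93.3%, with intervals within 73.9% to 96.4%. The 3 root libraries were all below the 3 stem libraries. The means were 60.97% ± 3.10 in roots and 90.1% ± 2.95 in stem (SD, n = 3 each), an exact two-sided permutation p = 0.1, which is the smallest that 3 against 3 allows. Over all tissues but roots, the pooled share was 91.9% (Wilson interval 89.5% to 93.8%). Stem supplied 388 of the 581 p5 reads and 41 of the 51 p3 reads pooled, so this is largely the stem value. Of the libraries outside roots, 12 list p3 at 0. In the 10 of them with p5 above 0, p5 had only 6 to 39 reads, so that a p3 strand of a few reads cannot be told apart from an absent one. Stem 2 had 228 p5 and 27 p3 reads, both clear of such low values. Intervals cover counting error only.

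The MIR159a hairpin also carried a less abundant pair of strands nearer its loop. cas-miR159b-5p was above 0 in all 20 libraries with 8254 reads. Its levels were 1386, 3159 and 3607 CPM in stem, against 127 to 1936 CPM in the other tissues, and stem averaged 2717 ± 1175 CPM (n = 3) against 831 CPM elsewhere. Only mature leaves 1 and young pods 1, at 1936 and 1526 CPM, exceeded the lowest stem library. The log2 fold change in stem was 1.76 ± 0.42 (adjusted p = 0.00330), and without stem 3 the call was lost (adjusted p = 0.0508). Over the 7 tissues its adjusted p was 0.0301.

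Per 100 reads of mtr-miR159a, cas-miR159b-5p had 1.86, 2.58 and 2.78 reads in flower buds, against tissue means of 0.666 to 1.10 elsewhere. Young pods 1, at 2.01, also reached that range, while young pods 3 had 0.168. The bud mean was 2.41 ± 0.48 (SD, n = 3). The log2 ratio of mtr-miR159a to cas-miR159b-5p did not pass over the 7 tissues (permutation p = 0.120). It did without young pods 3 (permutation p = 0.00122) and without young pods 1 (p = 0.0103), the lowest and highest young pod libraries. Without each of the other 18 libraries it did not pass (p up to 0.379). This ratio was added after seeing the data. As a level, cas-miR159b-5p averaged 1068 ± 263 CPM in buds against 1106 CPM elsewhere (log2 fold change 0.19 ± 0.47, adjusted p = 0.991), where mtr-miR159a was called lower. The difference between these 2 contrasts is that of the ratio above.

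lcum-miR-4626_3318-3p, the strand predicted opposite it, had 4316 reads. It averaged 1120 ± 528 CPM in stem, 865 ± 448 CPM in flower buds and 160.2 ± 38.9 CPM in roots (SD, n = 3 each). cas-miR159b-5p had more reads than this partner in 19 of 20 libraries, and in shoots 1 the counts were 79 and 80. In roots cas-miR159b-5p had 268 reads and the partner 73, and in flower buds they had 1208 and 1034. MIR159a-p5, between mtr-miR159a's empty opposite stretch and cas-miR159b-5p, had only 60 reads, with 8 in shoots 3, 13 in mature leaves 1, 21 in stem 2 and 18 in stem 3.

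Forms of mtr-miR159a with other ends were rare. ptc-miR159a_R+1 adds A at the 3′ end, cpa-miR159a_R+1 adds G and ptc-miR159a_R+2 adds AT. The MIR159a hairpin continues with CAC, so none of these added bases is the next base of that hairpin. vca-miR159-3p_L+2 adds AA at the 5′ end, where the hairpin has TTC, and so shifts the seed. ptc-miR159a_R+1 was the most abundant, at 4529.5 reads in 20 of 20 libraries, and cpa-miR159a_R+1 had 572.5 reads, vca-miR159-3p_L+2 359 and ptc-miR159a_R+2 200. The fractions are as deposited, and how they arose was not given.

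ptc-miR159a_R+1 was at 1386, 1971 and 1585 CPM in stem, against 190 to 629 CPM in every other library except mature leaves 1, at 2136 CPM. In stem its log2 fold change was 2.01 ± 0.33 (adjusted p = 8.98e-05), and that of cpa-miR159a_R+1 was 2.59 ± 0.63 (adjusted p = 0.00361, lost without stem 2 at 0.0602). As a share of mtr-miR159a reads, ptc-miR159a_R+1 ran from 0.335% ± 0.0920 in roots and 0.390% ± 0.0893 in shoots to 0.681% ± 0.109 in stem (SD, n = 3 each). The test of its log2 ratio to mtr-miR159a over the tissues was added after seeing the data. It gave permutation p = 0.0179, or 0.0239 adjusted over 4 ratios, an adjustment that does not cover that choice. The root libraries had 0.400%, 0.376% and 0.230%, all below the stem libraries at 0.805%, 0.630% and 0.606%.

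**Figure D5:**
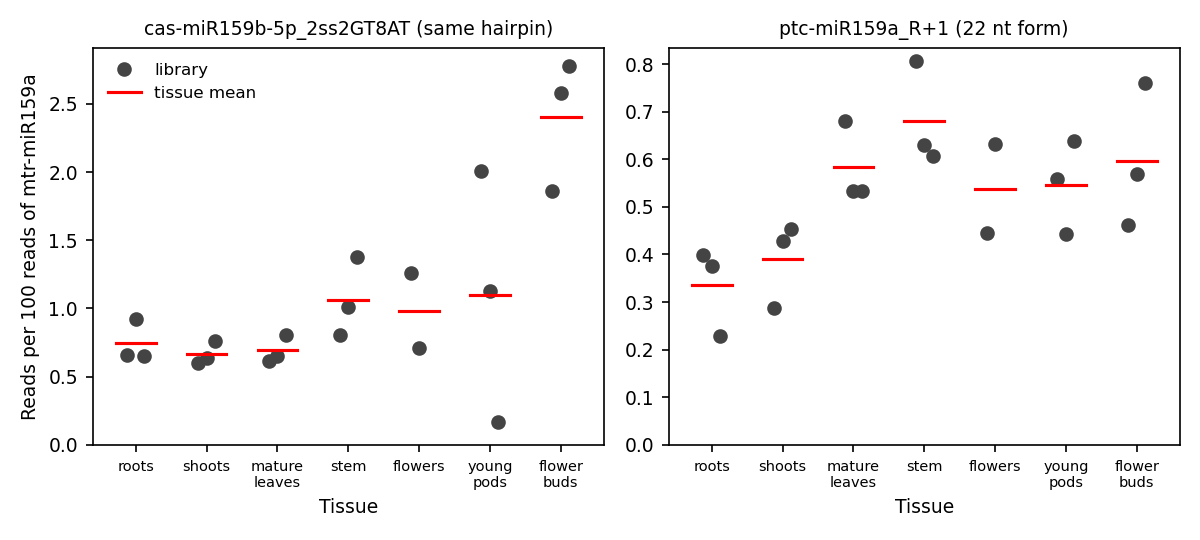
Reads of cas-miR159b-5p (left) and of ptc-miR159a_R+1 (right) per 100 reads of mtr-miR159a in each library, by tissue. Points are libraries and bars are tissue means. The flower bud mean is 2.41 for cas-miR159b-5p, and ptc-miR159a_R+1 ranges from a mean of 0.335 in roots to 0.681 in stem.

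The 11 tested members include ath-miR159b-3p_R+1_1 and ath-miR159b-3p_R+1_2, which have identical counts. Of the 11, 6 differed among the tissues, against 74.3% of all 323 features tested. These 6 were mtr-miR159a, both MIR159b strands, cas-miR159b-5p, ptc-miR159a_R+1 and cpa-miR159a_R+1. MIR159b-p3 is counted among them although only its root libraries brought it into the test. Across the 7 contrasts of a tissue with the other 6 there were 13 calls, and over all features 26.8% of such tests were called. Roots had 4 of the 11 called, against 52.0% of features. The MIR159b strands were higher, of which p3 entered the test through roots alone, and ptc-miR159a_R+1 (-1.10 ± 0.43) and cpa-miR159a_R+1 (-2.53 ± 1.03) were lower. The root libraries had only 0, 4 and 0 reads of cpa-miR159a_R+1. There 5 reads equal 26.9 to 40.5 CPM, near its means of 43.3 to 46.7 CPM in shoots, flowers and young pods. The size of its root difference is therefore uncertain. Stem had 5 called, all higher, against 22.6% of features called higher and 30.3% called in either direction. They were mtr-miR159a, cas-miR159b-5p, both lengthened forms and MIR159b-p3. For MIR159b-p3, 0 stem libraries reached the level of the filter, so no p is given, and the call was lost without stem 2. The MIR159b-p3 mean in stem, 30.4 CPM, was under the 645 CPM mean of the other 6 tissues, which roots carry. The contrast averages logs, and 3 of the tissues were at 0. Mature leaves had 2 called higher, ptc-miR159a_R+1 (1.31 ± 0.35) and cpa-miR159a_R+1 (2.18 ± 0.66). There 31.0% of the 323 features were called in either direction, 68 higher and 32 lower. Flower buds had 2 called lower, mtr-miR159a and MIR159b-p5 (-2.32 ± 0.79, adjusted p = 0.0354). There 6.19% of features were called lower and 23.8% in either direction. MIR159b-p5 was about as low in flowers (-2.29) and shoots (-2.16), which were not called, and roots raise the mean it is set against. In buds 0 libraries reached the level of the filter for it, and its call was lost with the authors' factors.

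In shoots, flowers and young pods edgeR called 0 of 11 members, with 1, 2 and 0 at an unadjusted p under 0.05, and DESeq2 called 2, 1 and 0. The background there was 14.2%, 15.2% and 20.7%. The 13 calls became 7 without mature leaves 1 or without stem 2, and 8 without young pods 3. The calls of both lengthened forms in roots and in mature leaves, and of MIR159b-p5 in buds, were each lost without any of 9 to 13 single libraries. That of ptc-miR159a_R+1 in mature leaves also turned in sign without mature leaves 1 (-0.11).

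The remaining members were scarce. ath-miR159b-3p_R+1_1 and ath-miR159b-3p_R+1_2 had the same 375 reads in every library, so they cannot be counted separately, and vca-miR159-3p_L+2 was above 0 in 17 libraries. osa-miR159c_1ss1AN, which differs from mtr-miR159a by T20C and an unread first base, had 254 reads in 11 libraries and 0 in roots. It reached the level of the filter in 2 stem libraries, 1 flower library and 1 young pod library, and ptc-miR159a_R+2 in 2 stem libraries alone. None of these, nor ptc-miR159a_R+2, passed over the tissues (adjusted p 0.204 to 0.596). Below the filter were 6 members. These were MIR159a-p5, lus-miR159b (108 reads), lus-miR159b_R+1 (46), ath-miR159b-3p_1ss19CT (32), zma-miR159g-3p_L-1R-1_1ss19CT (3.5 reads, in roots 1 alone) and cme-miR159b_R-3 (3 reads, in flowers 2 alone).

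Over the 7 tissue means of log2(CPM + 1), the levels of vca-miR159-3p_L+2 (Pearson r = 0.977) and ptc-miR159a_R+1 (0.930) lay closest to those of mtr-miR159a among its relatives. cas-miR159b-5p stood at 0.699, MIR159b-p5 at 0.186 and MIR159b-p3 at 0.0668. These values describe 7 points that share libraries and depth. Of 307 other features the 5 most alike were ath-miR156a-5p_R+2 (0.945), ath-miR396b-5p_R+1 (0.940), lcum-miR-7485_2028-5p (0.928), cme-miR156a_L+1R+3_1ss15TA (0.897) and mtr-miR396a-5p (0.880).

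miR319, the related family that targets TCP factors, shared the stem maximum but not the bud minimum of mtr-miR159a. Summed over its members it was at 114244, 294139 and 159963 CPM in stem, and its lowest tissue was mature leaves, with 9506, 6599 and 6584 CPM. In flower buds it had 43233, 93045 and 84554 CPM, above the summed miR159 level of the same library each time (42230, 48795 and 45994 CPM). The log2 fold changes over the other 6 tissues were 2.81 ± 0.25 in stem, 1.22 ± 0.27 in flower buds and -2.61 ± 0.37 in mature leaves (adjusted p = 8.45e-10, 0.00158 and 1.10e-06). Of 54 families tested 37.0% were called in stem, 37.0% in flower buds and 48.1% in mature leaves. The other families that target MYB factors were scarce. miR858 had 61.8, 43.1 and 52.7 CPM in flower buds, 35.6, 47.03 and 105.5 CPM in young pods, and 0 and 27.4 CPM in flowers, and was listed at 0 in all libraries of roots, shoots, mature leaves and stem. miR858 could pass the filter only through flower buds and young pods, so no p is given for its level there. miR828, too low to be tested, was at 0 in roots, shoots, mature leaves and stem and at 26.4 CPM or less elsewhere.

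Of 9 conserved families that target other developmental transcription factors, 3 rose and 1 fell in stem and 5 did not pass. miR164, for NAC factors, rose by 1.42 ± 0.21, miR172, for AP2-like factors, by 1.36 ± 0.28 and miR396, for growth-regulating factors, by 1.14 ± 0.28, while miR167, for auxin response factors, fell (-2.92 ± 0.33). In flower buds 2 rose, miR160 and miR166, 2 fell, miR156 and miR396, and 5 did not pass. In roots 1 rose (miR171), 1 fell (miR164) and 7 did not pass, where 64.8% of families were called.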

How the data were processed

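Small RNA libraries were made from total RNA of pooled material with an Illumina TruSeq small RNA kit, per the labels' protocols. Tools for trimming, mapping and miRNA calling, and any genome build, were not given in the sources used here. Per the file headers, the authors deposited expected counts (estimated reads per mature miRNA entry, in columns named raw), of which 25.8% of the values above 0 were not whole to a tolerance of 0.01. The authors also deposited a normalized signal, each raw column times 1 factor per library, and these factors served here only as an alternative scaling. Another 7 lines of the table were empty.

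The 20 miR159 entries were collapsed to 1 per sequence, keeping the entry with the highest total. Members, lists and tests were chosen with earlier results of these data known. Counts were rounded (ties upward), filtered with filterByExpr by tissue (about 45.9 CPM in at least 2 libraries) and scaled by TMM, and library sizes were taken over the features kept. Tests were edgeR 4.0.16 quasi-likelihood F-tests in a single fit of tissue to the 20 libraries (limma 3.58.1, R 4.3.3). Each tissue was set against the other 6, averaged as logs, with Benjamini-Hochberg adjustment over 323 features, or over 54 families of summed counts. Where a member was at 0 throughout a tissue, its fitted fold change is left out. Ratios within libraries were compared by permuting the libraries 100000 times, with F as a two-sided test statistic. The ratios to cas-miR159b-5p and ptc-miR159a_R+1 were added after seeing the data. Hairpins were folded with RNAfold 2.7.2. Python 3.11.15 was used with scipy 1.17.1, numpy 2.4.6, matplotlib 3.10.9 and pandas 2.3.3. Both tests were checked on simulated data.

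Named miRNAs were every miR159 member, the 5 other features most alike mtr-miR159a in tissue means, and the families of the 2 lists. The alternatives were DESeq2 1.42.0 and its size factors, library size alone, the authors' factors, no filter, summed entries, exact features only, a replicate block, a pseudocount of 5 reads, and leaving out each library. The labels do not say whether replicate numbers pair the libraries, so the libraries were treated as unpaired. Over the 57 same-number pairs of libraries from different tissues, deviations from the tissue means correlated at -0.34 to 0.29, and 16 were over 0.1.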

Additional observations from a re-analysis of the deposited data

How the results depend on the processing

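mtr-miR159a was called higher in stem under every alternative tried, and MIR159b-p5 higher in roots. The ratio of mtr-miR159a to MIR159b-p5 differed over the tissues under every alternative tried for it. The root difference of mtr-miR159a, -0.29, was 0.34 with library size alone and -1.12, a call, with the authors' factors. The mature leaf difference of 0.98 was a call at 1.16 with the authors' factors, and ran from -0.21 to 1.28 without single libraries. The flower bud difference of -1.32 was not a call at -0.82 with the authors' factors or at -0.98 with ties rounded to even, and ran from -1.42 to -0.92 without single libraries. Without single libraries, stem against mature leaves ran from 0.21 to 1.62, mature leaves against shoots from -0.52 to 0.79, roots against young pods from -0.054 to 0.41 and young pods against flowers from -0.28 to 0.43 (-0.12 with library size alone). ptc-miR159a_R+1 in mature leaves ran from -0.11 to 1.66. Of the 9 pairs of tissues called, 7 were called by DESeq2, 5 with library size alone, 8 with the authors' factors, 6 with exact features only, 6 with ties rounded to even, 9 with the replicate block and 4 to 9 without single libraries. The cause was not tested.

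The 13 calls among members were 8 with ties rounded to even and 7 to 16 without single libraries. Features differing over the tissues numbered 240, or 156 with exact features only, where fewer features were tested. Calls in the 7 contrasts numbered 605, or 931 without the filter. The split of root calls moved with the scaling: 104 higher and 64 lower with TMM, 109 and 51 by DESeq2's factors, 123 and 42 by library size, 80 and 90 by the authors' factors. The choice of TMM reference, the rounding of ties to even and the alternatives for pairs of tissues were added after seeing the data. With each of the 20 libraries as TMM reference, mtr-miR159a was called 20 times in stem and 19 times in flower buds.

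The labels do not say whether a replicate number stands for shared material, and the correlations do not settle it. Of 20 libraries 10 correlated best with their own number. The median correlation was 0.029 for same-number pairs and -0.016 for other pairs. With the replicate block, calls over the 7 contrasts were 573 and the mtr-miR159a differences were 1.60 in stem and -1.32 in flower buds. The members' calls lost with it were those of ptc-miR159a_R+1 and cpa-miR159a_R+1 in roots (adjusted p = 0.0719 and 0.0521). MIR159b-p3 had no value from 1 to 4 reads, which limits what can be said of it outside roots.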
